A study of Homo sapiens with 2 samples.

Results

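The loci examined here encode the kinases that carry the signal of the B-cell receptor, LYN, BLK, SYK and BTK, together with their effectors VAV1 and PLCG2. A PAX5 peak was assigned to a gene when its summit, the position of highest read coverage, lay in the hg19 window of that gene or within 10 kb on either side. This rule used position alone and selected 37 of the 21361 peaks of the series, namely 4 at LYN, 7 at BLK, 8 at SYK, 3 at BTK, 6 at VAV1 and 9 at PLCG2. All 37 summits were also in the cleaned peak list of the authors. This does not set them apart, since the cleaning removed few peaks anywhere. Peak density in the windows relative to the genome was 7.079 times in the full list and 7.082 times in the cleaned one. PAX5 occupancy was measured by chromatin immunoprecipitation and sequencing (ChIP-seq) with an Abcam antibody in NALM6, an established human leukaemia line of B-cell precursors. The cells were untreated and had been grown for 4 days in phenol red-free RPMI with 10% fetal bovine serum and 2 mM glutamine, and both samples were grown alike per the labels. The series has 1 ChIP sample (46190179 reads used by the peak caller) and 1 antibody-free input (25416853 reads). The labels name NALM6 for both, and the input also bears the name RXL, which the labels do not explain. With 1 sample a group there is no replicate error, no test between samples was made, and every interval below covers counting error only.

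PAX5 is the paired-domain transcription factor that commits progenitors to the B lineage and keeps mature B cells in it, activating many genes of B-cell receptor signalling and repressing genes of other lineages. When the receptor, or the pre-B-cell receptor of precursor cells, is engaged, the Src-family kinases LYN and BLK phosphorylate the receptor's signalling tails. SYK docks on these tails and passes the signal through adaptors to the Tec-family kinase BTK, to the exchange factor VAV1 and to the phospholipase PLCG2, which releases the second messengers for calcium and protein kinase C. Binding measured here says where PAX5 was enriched, not whether a gene was expressed.

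Each of the 6 loci held several PAX5 peaks, and their density was above that of the genome as a whole. The windows with their flanks covered 721 kb and held 51.3 peaks per Mb (exact Poisson 95% interval 36.1 to 70.7), 7.08 times the density of 7.25 per Mb over chromosomes 1 to 22 and X (interval 4.98 to 9.76). Counted in 10 kb bins, 24 of 74 bins in the windows (32.4%, Wilson 95% interval 22.9 to 43.7) held a summit, against 5.69% of all such bins. Another summit lay within 10 kb of 31 of the 37 peaks (83.8%, interval 68.9 to 92.3), beside 51.9% of all peaks. These intervals treat peaks as independent, although neighbouring peaks share their locus. The genome mean includes stretches without genes, and other gene bodies were not compared.

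Among the 6 loci, BLK was densest with 76.9 peaks per Mb (interval 30.9 to 158.5), followed by SYK with 68.4 (29.5 to 134.7) and VAV1 with 57.7 (21.2 to 125.6). BTK had 52.6 (10.9 to 153.8), PLCG2 45.2 (20.7 to 85.9) and LYN 26.1 (7.12 to 66.9). All 6 intervals overlapped one another, so no order of the genes was resolved. Only the interval of LYN reached the genome density. Against its own chromosome the ratio was 20.8 for BTK, because chromosome X carried only 2.53 peaks per Mb, and 2.85 for VAV1 on chromosome 19, which carried 20.2. It was 14.3 for BLK, 10.5 for SYK, 4.85 for LYN and 3.96 for PLCG2.

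**Figure D1:**
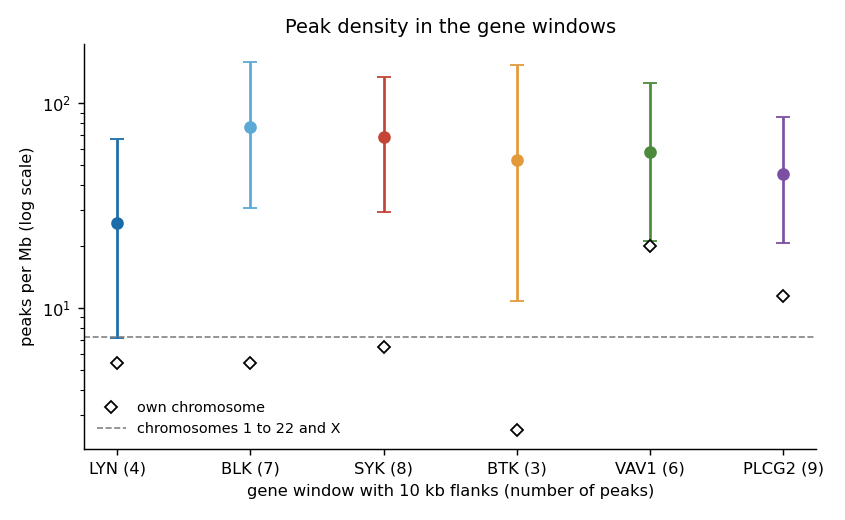
PAX5 peaks per Mb (log axis) in each gene window with its 10 kb flanks; circles are the densities, bars the exact Poisson 95% intervals, diamonds the density of the gene's own chromosome and the dashed line that of chromosomes 1 to 22 and X (7.25). The 6 circles lie between 26.1 and 76.9 and their bars overlap.

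In strength the peaks resembled the list they came from. Fold enrichment, the authors' ratio of ChIP pileup to local control background, had a median of 3.95 over the 37 peaks (range 2.34 to 8.97), beside 3.89 over all peaks. A fold of at least 5 was reached by 10 of 37 (27.0%, Wilson interval 15.4 to 43.0), close to the background of 25%. Without the flanks the share was 16.1%. A fold of 10 was reached by 0 of 37 peaks, beside 1.72% of all peaks. A count of 0 allows a share of up to 8.11% when its limit is set at 3 counts, and the Wilson upper bound is 9.41%. The median ChIP read number over the summit was 65 in these peaks and 61 in the list, and the median control background 9.0 and 8.0 extended reads. Here and below, ChIP reads are unscaled counts, and the background is the peak caller's local value at the depth of the control. Fold is therefore not reads divided by background. For the fold, the ChIP signal is first scaled by 0.550, and 1 is added to signal and background. At least 100 reads were found at 9 peaks (24.3%, interval 13.4 to 40.1), beside 15.0% of the list, and these 9 lay at BLK, SYK, VAV1 and PLCG2. The highest read number was 85 at LYN and 84 at BTK. Every gene had a peak with a fold of at least 5, but at LYN, BLK and BTK such peaks lay only in the flanks.

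Along the genes the peaks were unevenly placed. Of the 37 summits 31 lay between the borders of the gene windows, and 26 of these (83.9%) were in the 5′ 50% of their window. All summits between the borders of LYN (3), BTK (1), VAV1 (5) and PLCG2 (8) were on that side, as were 6 of 8 at SYK and 3 of 6 at BLK. A summit lay within 1 kb of the 5′ border in 4 of 6 genes (LYN, BLK, SYK and, with a pair of summits, VAV1), where 1.35% of all 2 kb bins of the genome and 35 of 364 (9.62%) of those in these windows held one. Neither the starts nor the 5′ 50% of other genes were examined. The borders are given to the nearest kb, so that distances hold to about 0.5 kb. The RefSeq models of BTK and PLCG2 are longer than their windows, and the 5′ 50% of those models was not examined.

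The strongest sites were not those at the 5′ borders. The 5 summits within 1 kb of a 5′ border had folds of 3.18 to 3.85, all under the median of the list, with 48 to 87 reads over backgrounds of 6.52 to 11.7. The 5 summits in the flanks more than 1 kb from a 5′ border had folds of 5.08 to 8.97, with 59 to 178 reads over backgrounds of 3.04 to 12.6. Of the 27 other summits inside the genes, 5 (18.5%) reached a fold of 5. This contrast was seen after the values and carries no test. It also rests on the windows used, and the RefSeq models of BTK and PLCG2 are longer than theirs. For BTK, RefSeq lists starts 4605 bp apart, and its upstream flank summit was 5.13 kb from the border.

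**Figure D2:**
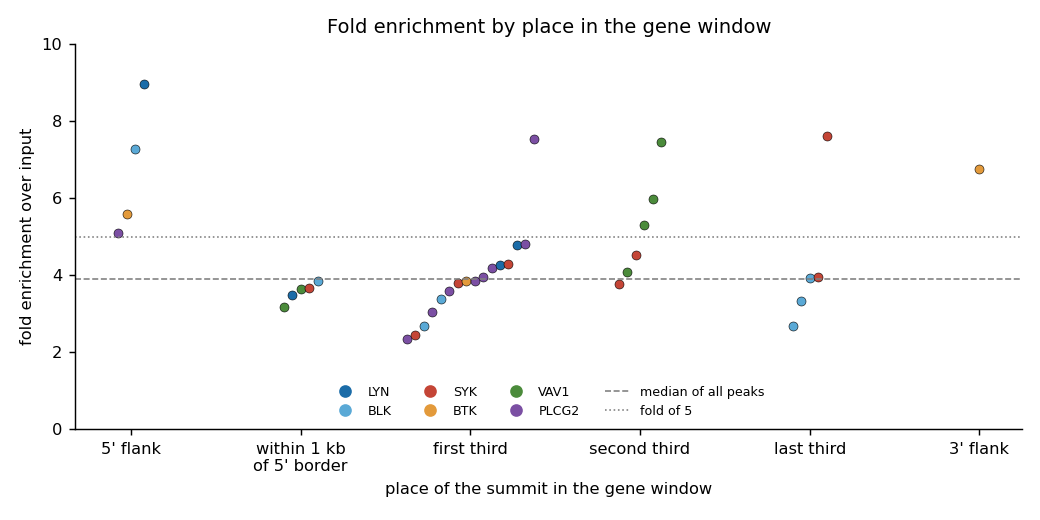
Fold enrichment over input (vertical axis) of each of the 37 peaks by the place of its summit in the gene window (horizontal axis), 1 point per peak coloured by gene; the dashed line is the median of all 21361 peaks and the dotted line a fold of 5. The 4 points in the 5′ flanks lie at 5.08 or above, and the 5 points within 1 kb of a 5′ border lie at 3.85 or below.

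LYN encodes a Src-family kinase that starts receptor signalling and also takes part in its inhibition. Its 4 peaks lay on chromosome 8, 3 of them within 7 kb of the 5′ border of the 133 kb window (56792000 to 56925000). The site of highest fold in all 6 loci was 4.28 kb upstream of the 5′ border, from 56787407 to 56787937, with 64 ChIP reads (exact Poisson 95% interval 49.3 to 81.7) over a background of 3.04, a fold of 8.97 (6.96 to 11.4 with the background taken as fixed). Its read number was at percentile 55.1 of the list and its background at percentile 3.90, so that the fold, at percentile 97.2, rested on a low control value. The peak at the 5′ border, with its summit 0.63 kb inside, had 50 reads (37.1 to 65.9) over 7.20 and a fold of 3.48 (2.61 to 4.55). The read intervals of these 2 peaks overlapped. Their fold intervals did not, but these take both backgrounds as fixed, and the upstream peak was picked as the highest. Within the gene, summits at 6.33 kb and 40.3 kb had folds of 4.26 and 4.78. No summit was called in the remaining 92.7 kb of the LYN window.

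BLK encodes another Src-family kinase, one largely restricted to the B lineage. Its 71 kb window runs from 11351000 to 11422000. It had the peak with the most reads and the largest −log10 q of all 6 loci, on chromosome 8 from 11349248 to 11350721, with the summit 1.37 kb upstream of the 5′ border. There 178 reads (152.8 to 206.2) stood over a control background of 12.6, with a fold of 7.28 (6.26 to 8.41) and a −log10 q of 47.0. At 1474 bp it was also the widest of the 37 and the only 1 of at least 1000 bp (2.70%), a width that 3.22% of all peaks reached. The next summit was 1825 bp downstream, 0.46 kb inside the gene, with 87 reads over 11.7 and a fold of 3.85 (3.10 to 4.73). The fold intervals of the pair did not overlap. The other 5 BLK peaks had folds of 2.67 to 3.93. Of these, 2 lay in the first 16 kb and 3 formed a second group between 52.5 and 65.4 kb, separated from the first by 36.9 kb without a summit. The strongest of this group, at 65.4 kb, had 105 reads over 13.95 in the control and a fold of 3.93, the one at 52.5 kb a fold of 3.34 and that at 4.44 kb a fold of 3.39.

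LYN and BLK show how the ranking of sites depended on the measure. The LYN upstream site ranked 1 of 37 by fold, 6 by −log10 q and 21 by reads. The BLK upstream site ranked 5 by fold and 1 by both other measures. Their fold intervals overlapped.

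**Figure D3:**
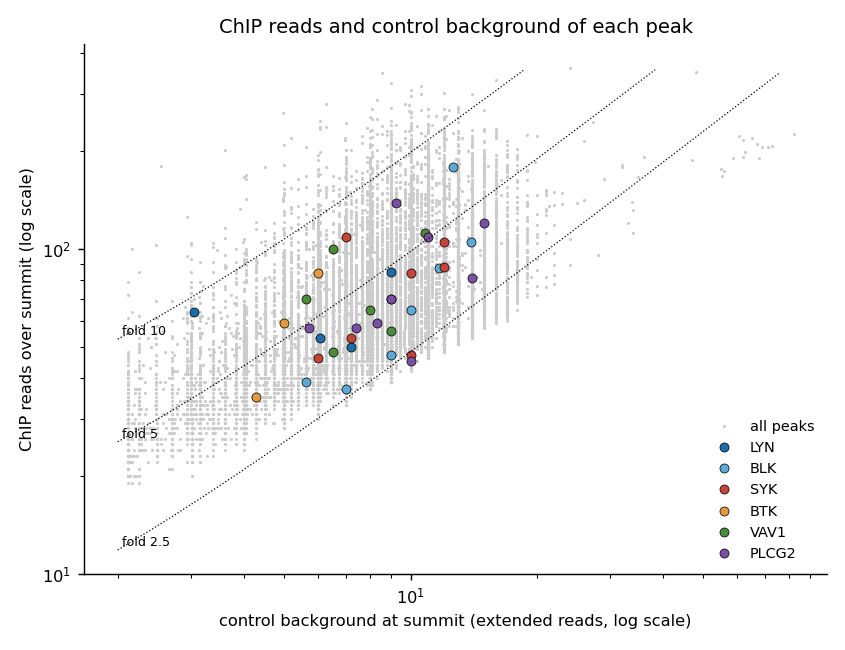
ChIP reads over the summit against control background at the summit, both on log axes, for all 21361 peaks (grey) and the 37 peaks at the 6 genes (coloured); dotted lines mark folds of 2.5, 5 and 10. The LYN upstream peak stands at the left with a background of 3.04, the BLK upstream peak at the top with 178 reads, and no coloured point lies above the line for a fold of 10.

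SYK, the kinase that binds the phosphorylated receptor tails, had its 8 peaks spread over most of its 97 kb window on chromosome 9 (93564000 to 93661000). The strongest was deep in the gene, at 80.1 kb from the 5′ border, from 93643850 to 93644287, with 109 reads (89.5 to 131.5) over 7.0 in the control and a fold of 7.62 (6.28 to 9.17). A second summit only 855 bp before it had 70 reads over 9.0 and a fold of 3.95 (3.10 to 4.97). In the middle of the gene, the summit at 42.6 kb had 105 reads and a fold of 4.52, and that at 29.5 kb had 84 reads and a fold of 4.29. Near the start, the summit at 5.51 kb had 88 reads and a fold of 3.80. The peak on the 5′ border, from 93563973 to 93564487, had its summit 0.09 kb inside the window, with 53 reads over 7.20 and a fold of 3.68 (2.79 to 4.77). The remaining 2 peaks had folds of 3.76 and 2.44. Neither flank of SYK held a summit.

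The sequence around the annotated starts of SYK is shown because a peak covered the 5′ border. RefSeq (GRCh38.p14, plus strand) lists a pair of starts 219 bp apart at the 5′ end, and each line runs from 250 bp before to 50 bp after a start. Capitals mark GAGGAA on either strand, the PU box bound by the B-cell and myeloid factor PU.1, which contains the ETS core GGAA. A further listed start, 25820 bp from the first and with 1 such match at position -47, is not printed because it is away from this border.
SYK start 1: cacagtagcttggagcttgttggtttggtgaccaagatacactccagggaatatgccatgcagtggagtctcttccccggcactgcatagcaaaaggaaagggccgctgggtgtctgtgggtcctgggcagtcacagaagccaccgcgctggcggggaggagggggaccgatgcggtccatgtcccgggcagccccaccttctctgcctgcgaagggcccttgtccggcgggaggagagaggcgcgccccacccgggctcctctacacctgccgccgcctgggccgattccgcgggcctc
SYK start 2: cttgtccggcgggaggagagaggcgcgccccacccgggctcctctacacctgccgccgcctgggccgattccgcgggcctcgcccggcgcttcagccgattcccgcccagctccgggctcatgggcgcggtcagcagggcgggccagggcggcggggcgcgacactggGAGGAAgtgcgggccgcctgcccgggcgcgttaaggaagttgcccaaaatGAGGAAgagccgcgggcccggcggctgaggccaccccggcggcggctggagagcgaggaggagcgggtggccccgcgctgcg
GAGGAA occurred 0 times before the first start and 2 times before the second, and 27.9% of the 35116 promoters in the table contain it. The core of the PAX5 paired-domain site, GCGTGAC, was in neither, and 2.52% of all promoters contain it. The GC box GGGCGG was counted 0 and 3 times (45% of promoters) and the E-box CANNTG 1 time in each (68.7%). The printed lines overlap, and the E-box counted in each is the same site. GGAA itself was counted 4 and 5 times, in a table where 95.5% of promoters hold it. All motifs were sought on both strands, and a match is a run of letters, not a binding site. The summit was not placed on these letters, since the peaks are on hg19.

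BTK, the Tec-family kinase whose loss causes X-linked agammaglobulinaemia, had 3 peaks, and 2 of these were outside the 37 kb gene window (100604000 to 100641000, transcribed towards lower positions). The strongest was 0.185 kb beyond the 3′ border, on chromosome X from 100603481 to 100604245, with 84 reads (67.0 to 104) over 6.0 in the control and a fold of 6.75 (5.41 to 8.32). The next gene on that side in RefSeq is TIMM8A, which encodes a chaperone of mitochondrial import. The second, from 100645954 to 100646263, was 5.13 kb upstream of the 5′ border, with 59 reads over 5.0 and a fold of 5.58 (4.29 to 7.15). The neighbour there is RPL36A, a ribosomal protein gene on the opposite strand. Distances to the starts of these neighbours were not measured on hg19, and to which gene the sites belong was not tested. The only summit inside BTK, at 10.2 kb, had 35 reads over 4.28, the fewest reads of the 37, and a fold of 3.84 (2.73 to 5.27). Reads and background were lower on chromosome X in general, with medians of 45 reads and 4.50 over its 392 peaks.

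RefSeq lists a pair of starts for BTK, 4605 bp apart on GRCh38.p14 (minus strand), and both are shown because the hg19 summit stood 5.13 kb upstream of the window. Positions were not moved between builds. These sequences were chosen after the peak values were seen. Capitals again mark GAGGAA, here read as TTCCTC on the printed strand.
BTK start 1: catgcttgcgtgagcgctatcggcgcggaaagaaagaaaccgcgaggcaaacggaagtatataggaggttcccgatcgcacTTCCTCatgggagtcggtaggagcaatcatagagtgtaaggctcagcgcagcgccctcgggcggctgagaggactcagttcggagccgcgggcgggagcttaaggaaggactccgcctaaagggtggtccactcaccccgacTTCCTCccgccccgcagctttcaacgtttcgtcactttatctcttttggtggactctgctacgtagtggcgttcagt
BTK start 2: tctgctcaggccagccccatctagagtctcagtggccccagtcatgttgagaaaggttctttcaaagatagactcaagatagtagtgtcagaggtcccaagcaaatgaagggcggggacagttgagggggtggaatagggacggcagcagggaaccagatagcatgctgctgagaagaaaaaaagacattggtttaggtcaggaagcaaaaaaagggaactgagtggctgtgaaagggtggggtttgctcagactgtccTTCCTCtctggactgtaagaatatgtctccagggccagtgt
The outer start had 2 matches and the inner start 1. The region of the outer start overlaps the listed promoter of RPL36A. GCGTGAC was in neither, and GGGCGG was counted 3 and 1 times.

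VAV1 encodes a guanine nucleotide exchange factor of blood cells that links the receptor to the actin skeleton. Its 6 peaks on chromosome 19 formed a pair at the 5′ border and a group of 4 about 30 kb into the 84 kb window (6773000 to 6857000). In the group, the summits at 28.7, 29.6, 31.6 and 33.1 kb spanned under 5 kb. Their folds were 5.31 (4.39 to 6.37), 4.09 (3.18 to 5.18), 5.97 (4.68 to 7.5) and 7.45 (6.08 to 9.03). The corresponding reads were 112, 65, 70 and 100 over backgrounds of 10.8, 8.0, 5.63 and 6.53. With 3 of its 6 peaks at a fold of 5 or more, VAV1 had the most such peaks of the 6 genes. The strongest lay from 6805861 to 6806328. The pair at the 5′ border was weaker. Its summits stood 0.453 kb before and 0.58 kb after the border, 1029 bp apart, with 56 and 48 reads and folds of 3.18 (2.43 to 4.10) and 3.64 (2.72 to 4.79). The last 50.9 kb of the VAV1 window held no summit.

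The promoter that RefSeq lists for VAV1 (GRCh38.p14, plus strand) is shown because this pair of summits stood at the 5′ border, with GAGGAA in capitals.
VAV1 start: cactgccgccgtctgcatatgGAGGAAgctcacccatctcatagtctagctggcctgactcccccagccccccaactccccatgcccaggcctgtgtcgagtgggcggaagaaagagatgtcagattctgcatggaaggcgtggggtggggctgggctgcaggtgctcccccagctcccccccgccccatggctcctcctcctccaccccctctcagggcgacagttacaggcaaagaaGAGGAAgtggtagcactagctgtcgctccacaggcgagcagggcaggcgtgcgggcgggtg
One of its 2 matches begins 11 bp before the start (position -11) and the other at position -229. GCGTGAC was not found, GGGCGG was counted 3 times and CANNTG 2 times.

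PLCG2, the phospholipase at the end of this relay, had the most peaks, 9, in the longest window, 179 kb on chromosome 16 (81813000 to 81992000). None was within 1 kb of the 5′ border. The nearest, 4.92 kb upstream from 81807841 to 81808292, had 109 reads over 11.0 and a fold of 5.08 (4.19 to 6.11). The other 8 lay between 19.6 and 58.2 kb, at 11.0 to 32.5% of the length of the window. The strongest closed this group, at 58.2 kb from 81870798 to 81871408, with 138 reads (115.9 to 163.0) over 9.23 in the control and a fold of 7.52 (6.34 to 8.87). It stood 703 bp from its neighbour at 57.5 kb, the shortest distance between 2 of the 37 summits, where the fold was 3.59 (2.76 to 4.60). The summit at 42.3 kb had the highest control background of the 37, 15.0, with 120 reads and a fold of 4.19. The summits at 38.7 kb and 29.8 kb had folds of 4.82 and 3.95. The remaining 3 had folds of 3.84, 3.04 and 2.34, the lowest of all 37. Downstream of 58.2 kb the PLCG2 window held no summit over 120.8 kb.

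**Figure D4:**
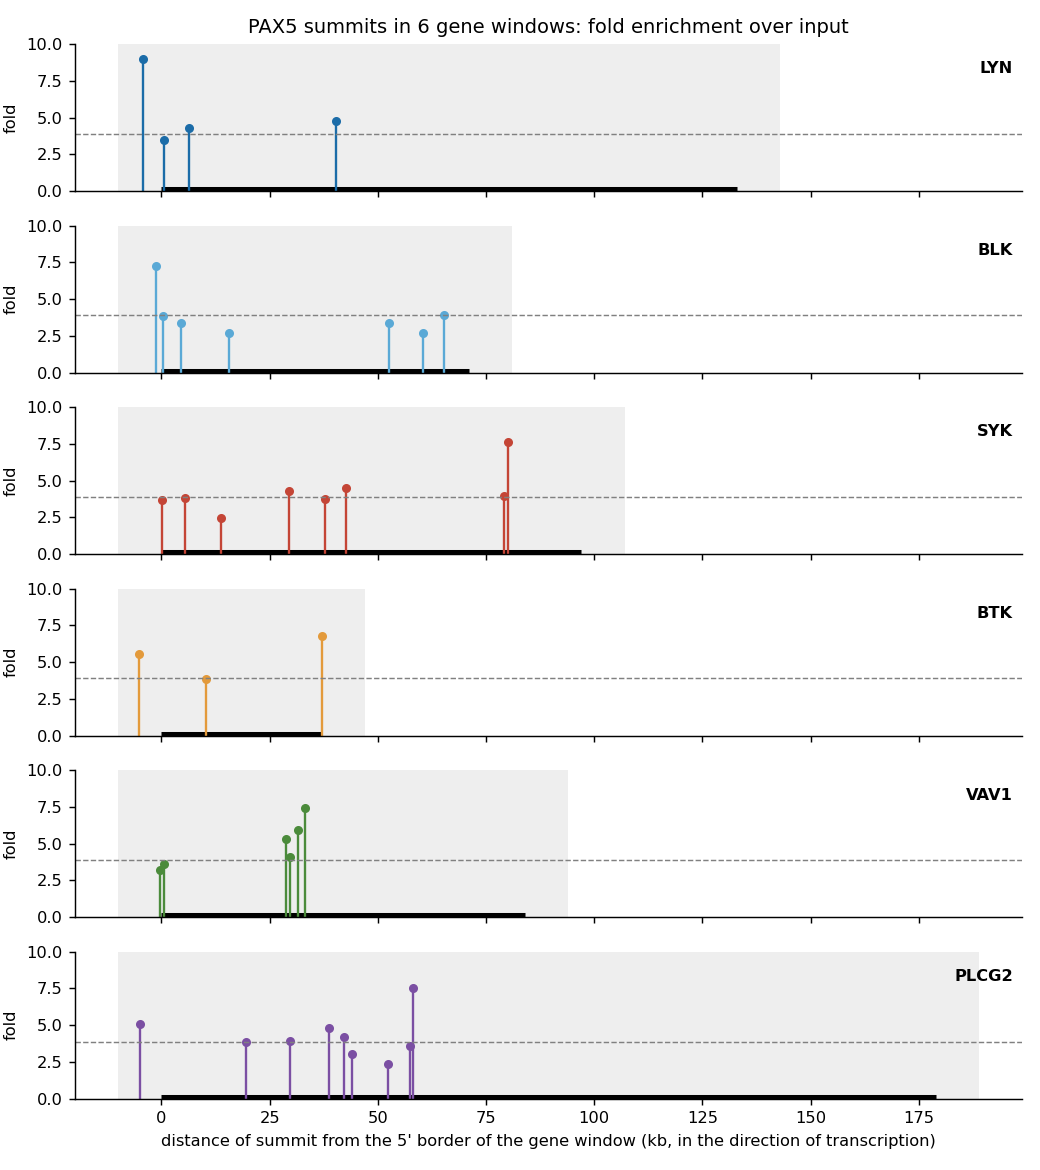
PAX5 summits at the 6 genes by distance from the 5′ border of the gene window (horizontal axis, kb, in the direction of transcription) and fold enrichment over input (vertical axis); black bars are the gene windows, grey areas the windows with 10 kb flanks and the dashed line the median fold of all peaks. VAV1 and PLCG2 have groups of summits inside the 5′ part of the gene and long stretches without a summit after them, and SYK has its highest summit at 80.1 kb.

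Short distances between summits were found in 4 of the genes. Of the 31 distances between neighbouring summits of a gene, 7 were at most 2 kb (1 at BLK, 1 at SYK, 3 at VAV1 and 2 at PLCG2), and the median was 5.71 kb. The share of such distances in the whole list was not computed, so this count has no background to be read against. Just outside the 10 kb limit, the nearest unassigned summits were 14.9 kb upstream of PLCG2 (fold 4.49, 39 reads) and 30.9 kb upstream of BLK (fold 3.77, 38 reads). The closest inside the limit were those at 5.13 kb from BTK and 4.92 kb from PLCG2 described above.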

How the data were processed

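PAX5 ChIP-seq and input reads of NALM6 had been mapped to hg19 with BWA, as the submitters' processing notes state. Per the file headers, the authors ran MACS2 2.1.1.20160309 with pooled ChIP reads and a combined control, extending reads of 50 bp to 225 bp, at a q-value threshold of 0.05. A pool hides the spread between its libraries. The pileup signal deposited by the authors is scaled by 0.550 to the control's depth. The deposited fold is the ratio of that signal to the local background, each plus 1, and the −log10 p and q values deposited with it are the caller's. Reads were recovered as pileup over scale (whole within 0.005 pileup units in 100% of peaks), and background from fold. Gene windows came from the rule given for these loci. Strands came from RefSeq for 4 genes and from general knowledge for LYN and BLK, which have no entry in the promoter table. Exons and introns were not assigned, because the gene table is on GRCh38.p14. For genes with over 6 peaks, the one nearest the 5′ border and the 5 of highest fold were described singly. Members and lists were chosen with earlier results of these data known. Chromosome density was taken from first to last summit. Scripts ran under Python 3.11.15 with pandas 2.3.3 and numpy 2.4.6, with scipy 1.17.1 for intervals and matplotlib 3.10.9 for plots, and were checked on simulated peaks. Alternatives varied flank, threshold, merging and peak list.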

Additional observations from a re-analysis of the deposited data

How the results depend on the processing

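Of 77 recomputed values, 72 stayed within the counting interval of the main value, within 1.5 times a main count or within 0.5 kb of a main distance. This count is a weak check, since the intervals are wide and the cleaned list and any overlap returned the same peaks. Values counted as kept could still change order against the list. The share with a fold of at least 5 was above that of the list in the main setting. It was below without flanks (16.1%) and at the stricter q (32.26%, list 34.4%). The median fold changed order likewise in both. The 37 peaks became 31 without flanks, 38 with flanks of 25 kb, 31 at a −log10 q of at least 5 and 32 after merging within 500 bp, and remained 37 in the cleaned list and under any overlap. The density ratio of 7.08 lay between 5.61, against each gene's own chromosome, and 8.15. Leaving out 1 gene at a time, an alternative chosen after seeing the data, gave 6.57 to 8.01. BTK kept 1 of its 3 peaks without flanks, by construction, and BLK 4 of 7 at the stricter q. The share of strong peaks was 0% at a fold of 10, and 59.5% were at or above the median −log10 q (50% of the list). The ratio of medians to the list, 1.02 by fold, was 1.07 by reads and 1.26 by −log10 q, the last also chosen after seeing the data. The cause was not tested. With 1 pooled ChIP and 3 to 9 peaks per window, the counting intervals did not resolve the order of the genes by density. The other genes planned for the pathway were not run, since they need an hg19 annotation, not used here. No paired analysis was possible because each group has 1 sample.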

Other observations

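The RefSeq models of BTK and PLCG2 on GRCh38.p14 are longer than the hg19 windows used for these genes. For PLCG2, the phospholipase with the longest window, 4 further summits were called between 10 and 60 kb upstream of the 5′ border. The summit at 14.9 kb had 39 reads over a background of 4.0 and a fold of 4.49. Those at 40.4 and 41.2 kb had 48 and 35 reads over backgrounds of 9.0 and 7.0 and folds of 2.74 and 2.53, at percentiles 9.8 and 5.1 of the list. The summit at 49.0 kb had 63 reads over 10.0 and a fold of 3.24. Each of these folds was under the 5.08 of the summit at 4.92 kb. Whether they belong to PLCG2 was not tested.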
